A study of Mus musculus with 16 samples.

Results

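The genotype by scratch interaction asks whether airway epithelium that lacks matrilysin answers a scratch differently from wild-type epithelium. For each gene it is the scratch response of Mmp7-null cultures (scratched minus uninjured) minus the scratch response of wild-type cultures, on the log2 scale of array intensity. A negative value means that the gene rose less, or fell more, in the null cultures. The same value is the genotype difference after scratching minus that before scratching. All 16 arrays of the series entered it, and each of 18193 genes entered through its brightest probe set, by the mean log2 value of the 16 arrays.

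The samples were air-liquid interface cultures of airway epithelium from C57BL/6 mice, with the total RNA of each culture on 1 array. The cultures formed 4 groups of 4, namely wild-type uninjured, wild-type scratched, Mmp7-/- uninjured and Mmp7-/- scratched. Scratched cultures had received 3 scratches, and all cultures were kept without serum for 24 hours before RNA was isolated. The labels do not give the time between scratch and harvest, the age of the mice or which cultures shared an animal, so the p-values rest on the spread from culture to culture, which may be technical. The label Mmp7-/- names a deletion carried by the mice, so uninjured null cultures lacked the gene before any scratch.

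Matrilysin is a small secreted metalloproteinase that airway epithelium makes after injury, and it is known for shedding cell surface proteins such as syndecan-1 and E-cadherin at wound edges. After a scratch, cells at the edge loosen their contacts, spread and migrate over the gap, and cells behind the edge enter division. An interaction term separates genes whose wound response depends on genotype from genes that merely differ between genotypes by the same amount in both states.

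The cultures carried the markers of airway epithelium on all 16 arrays. Epcam lay between 11.39 and 11.83, the basal keratin Krt5 between 10.13 and 11.26, the cilia regulator Foxj1 between 8.24 and 9.78 and the club cell secretoglobin Scgb1a1 between 7.95 and 8.82 on the log2 scale. Mmp7 itself gave no check of the genotype labels, because its only probe set stayed between 2.13 and 2.59 on all 16 arrays, the wild-type ones included. That is under 2.97, the level that 95% of readings of absent control transcripts stayed below. Of all genes, 11655 (64.1%) had a mean above that level. Spiked-in control transcripts told 3 sets of arrays apart. The Phe set held arrays of all 4 groups, the Trpn set wild-type arrays only and the Lys set null arrays only, and each of these sets held as many scratched as uninjured arrays of a genotype. A few arrays stood apart. Wild-type scratched 3 and null scratched 1 had the lowest upper quartiles of intensity (6.85 and 6.90 on the log2 scale), and wild-type scratched 4 had the largest excess of 3′ over 5′ signal for actin (2.62 on the log2 scale, against at most 1.93 elsewhere).

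Scratching changed 883 genes in wild-type cultures (4.85% of those tested) and 859 in null cultures (4.72%) at an adjusted p under 0.05. The interaction passed the same threshold for 24 genes, 0.132% of those tested. Of these, 19 were lower (0.104% of those tested) and 5 were higher (0.0275%). Among the 19 lower genes, 17 had risen in wild-type cultures. Of those 17, 5 also rose in null cultures, 9 did not pass there and 3 fell there. The wild-type response was the larger in size for 20 of the 24 genes and the null response for 4. The interaction contains both responses, so these counts describe its shape and do not test it. At an unadjusted p under 0.05, 1417 genes (7.79%) passed, 658 of them higher (3.62%) and 759 lower (4.17%).

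**Figure D1:**
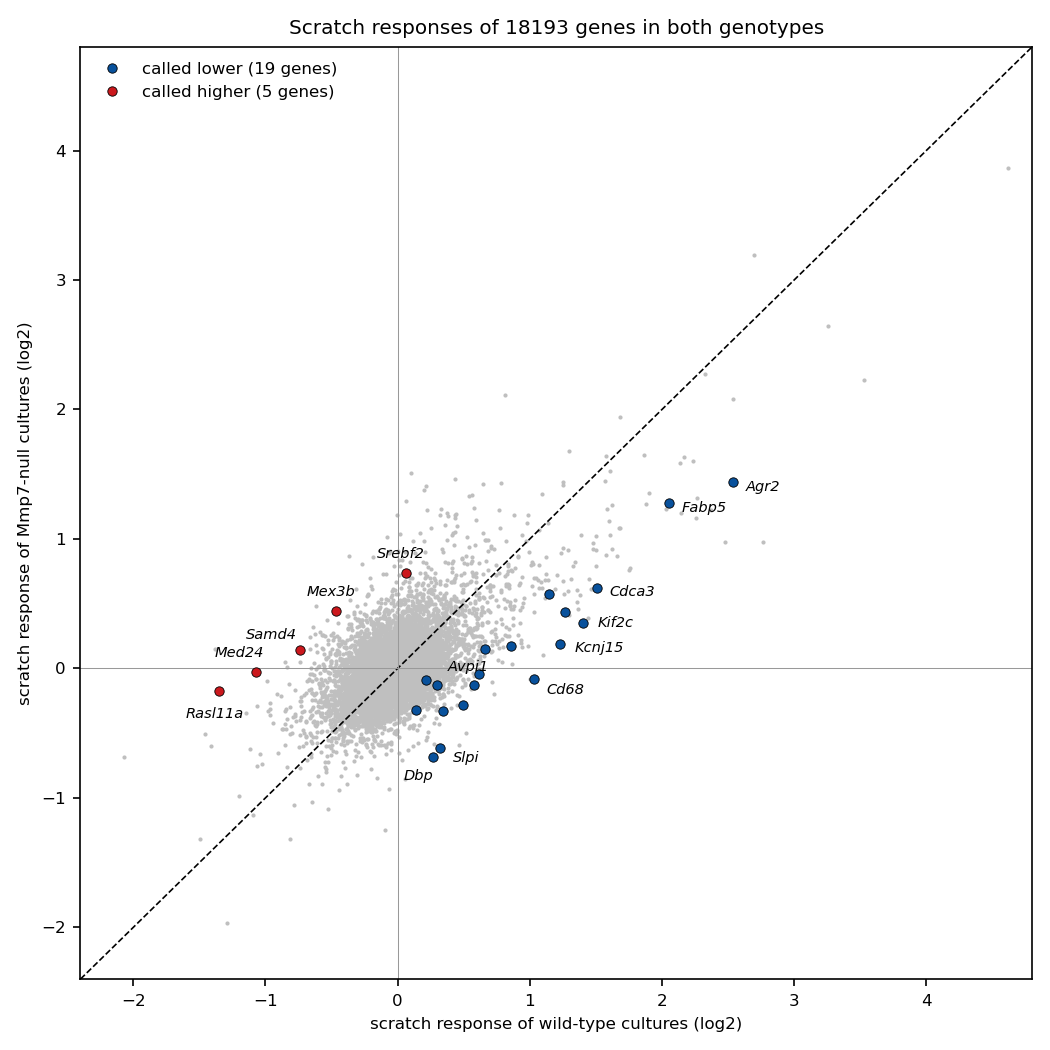
Scratch response of wild-type cultures (horizontal axis, log2) against that of Mmp7-null cultures (vertical axis, log2), 1 point per gene. The dashed line marks equal responses, blue points are the 19 genes called lower and red points the 5 called higher. Most blue points lie to the right of 0 and below the line, as for Agr2 at 2.54 in wild-type and 1.44 in null cultures.

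Slpi, the secretory leukocyte protease inhibitor that shields epithelium from neutrophil elastase, had the smallest p of all genes. Its 4 uninjured wild-type cultures read 10.07, 10.16, 10.11 and 10.18 on the log2 scale in replicate order, and the scratched ones 10.34, 10.33, 10.54 and 10.60. The uninjured null cultures read 10.18, 10.32, 10.13 and 10.07, and the scratched null cultures 9.69, 9.51, 9.40 and 9.65. The genotypes overlapped before the scratch and lay apart after it, with every scratched null culture below every other culture. Slpi rose 1.25-fold in wild-type cultures and fell 1.53-fold in null cultures, a log2 interaction of -0.94 (SE 0.11, adjusted p = 0.0061).

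Arrdc3, an arrestin-domain protein that helps to sort receptors in the cell, also moved in opposite directions. Wild-type cultures read 10.85, 10.95, 10.77 and 10.67 uninjured and 11.28, 11.35, 11.25 and 11.34 scratched. Null cultures read 11.30, 11.18, 11.11 and 11.05 uninjured and 10.75, 10.94, 10.87 and 10.97 scratched. Uninjured null cultures were thus above uninjured wild-type cultures, and scratched null cultures below scratched wild-type cultures, with no overlap in either state. The interaction was -0.78 (SE 0.09, adjusted p = 0.0080). A membrane-anchored serine protease that activates the epithelial sodium channel, Prss8, rose by 0.34 in wild-type cultures and fell by 0.33 in null cultures. Its interaction of -0.67 had an adjusted p of 0.037, and uninjured cultures of the genotypes overlapped, between 8.45 and 8.73.

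Avpi1, a gene named for its induction by vasopressin, rose 1.81-fold in wild-type cultures. Its wild-type readings went from 10.21, 10.17, 10.11 and 10.24 to 10.99, 11.04, 11.06 and 11.05. Null cultures read 10.46, 10.53, 10.53 and 10.38 uninjured and 10.45, 10.70, 10.71 and 10.72 scratched. The null groups overlapped through scratched culture 1, and the change there did not pass (0.17, adjusted p = 0.10). The log2 interaction was -0.68 (SE 0.08, adjusted p = 0.0061).

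**Figure D2:**
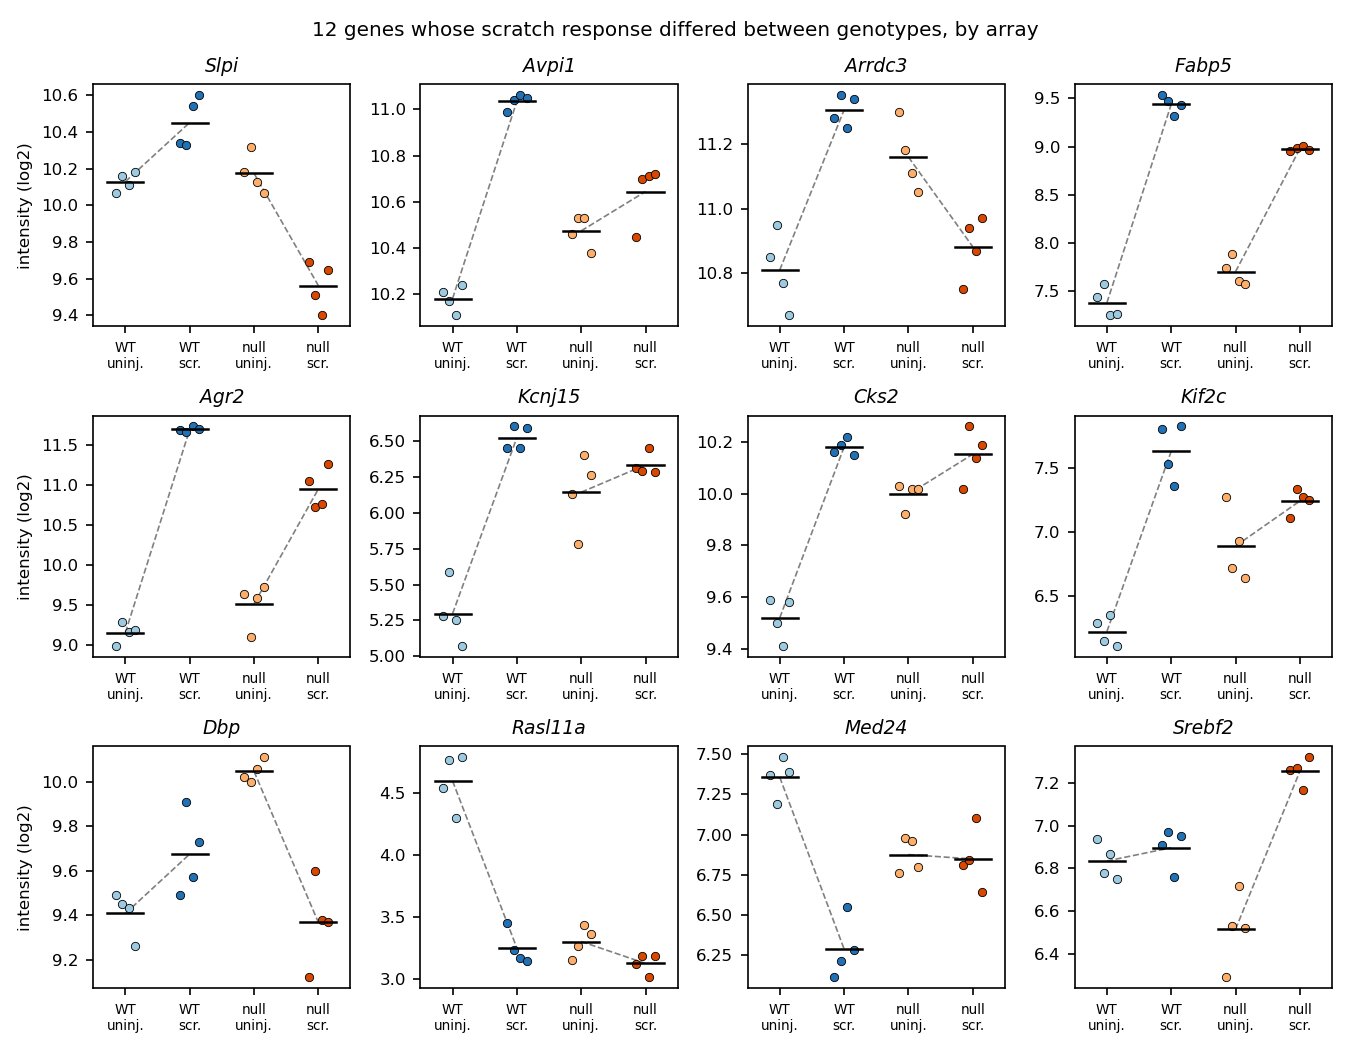
Log2 intensity of 12 genes on each of the 16 arrays, 1 panel per gene with its own axis. Circles are arrays, bars are group means of 4 arrays and dashed lines join uninjured to scratched cultures of a genotype; steeper lines on the left mark wild-type responses larger than null ones, as in Fabp5, and crossing levels mark genes such as Slpi and Arrdc3.

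Several genes rose strongly in both genotypes, and less in null cultures. Agr2, the disulfide isomerase that mucin-secreting cells use to fold mucins, had the largest wild-type response among the called genes. It read 8.98, 9.29, 9.16 and 9.18 in uninjured and 11.68, 11.66, 11.73 and 11.70 in scratched wild-type cultures, a 5.81-fold rise. Null cultures went from 9.64, 9.10, 9.58 and 9.72 to 11.05, 10.72, 10.76 and 11.26, a 2.71-fold rise. All scratched null cultures stayed below all scratched wild-type cultures. The interaction was -1.10 (SE 0.19, adjusted p = 0.043), and a second probe set gave -0.98. Agr2 is the only called gene of the 23 measured genes of the goblet and mucus list, whose median was -0.07. That list also held members of the opposite sign that did not pass, such as the chloride channel regulator Clca3a2 (0.79, adjusted p = 0.15) and the lectin Itln1 (0.76, adjusted p = 0.50).

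Fabp5, the fatty acid binding protein of stratified epithelium, rose 4.16-fold in wild-type and 2.42-fold in null cultures. Scratched wild-type cultures read 9.53, 9.47, 9.32 and 9.43, and scratched null cultures 8.95, 8.99, 9.01 and 8.96, against 7.25 to 7.57 and 7.57 to 7.89 in the uninjured ones. The interaction was -0.78 (SE 0.11, adjusted p = 0.019). Sec23b, a coat protein of vesicles that leave the endoplasmic reticulum, rose 2.21-fold in wild-type and 1.49-fold in null cultures, with an interaction of -0.57 (adjusted p = 0.043). Scratched wild-type cultures were tightly grouped between 12.11 and 12.14, and the scratched null cultures lay between 11.56 and 11.82.

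Kcnj15, Slc5a3 and Kcnk1 rose in wild-type cultures with no called change in null cultures. The inward rectifier potassium channel Kcnj15 read 5.28, 5.59, 5.25 and 5.07 uninjured and 6.45, 6.60, 6.45 and 6.59 scratched in wild-type cultures. Null cultures read 6.13, 5.78, 6.40 and 6.26 uninjured and 6.31, 6.29, 6.45 and 6.28 scratched. Uninjured null cultures were already above uninjured wild-type ones, and after scratching the genotypes overlapped. The interaction was -1.04 (SE 0.17, adjusted p = 0.040). Slc5a3, which carries myo-inositol into cells, rose by 0.57 in wild-type cultures, with an interaction of -0.70 (adjusted p = 0.043). The potassium leak channel Kcnk1 rose by 0.30 there, with an interaction of -0.43 (adjusted p = 0.020); the interaction rule for naming genes did not pick it, and it was chosen after its values were seen. The ion transport list does not hold Slc5a3 or Kcnk1. Of its 23 measured genes, Kcnj15 alone was called, and the median of the list was -0.03. The potassium channel subunit Kcne2 had the most negative value of all genes, -1.79 (SE 0.38), and did not pass (adjusted p = 0.11).

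Cd68, a glycoprotein of lysosomes best known from macrophages, rose 2.05-fold in wild-type cultures, from 6.40, 6.43, 6.83 and 6.77 to 7.83, 7.59, 7.59 and 7.54. Null cultures read 6.79, 6.73, 6.80 and 6.87 uninjured and 6.26, 6.94, 6.79 and 6.87 scratched. All scratched wild-type cultures lay above every null culture. The interaction was -1.12 (SE 0.19, adjusted p = 0.043). It was the called member among 29 leukocyte markers, 10 of which had a mean above background, and the list median was -0.03. The leukocyte marker Ptprc stayed between 2.32 and 2.46, Itgam between 2.32 and 2.46 and the T cell marker Cd3e between 1.87 and 2.19, below background on every array. In all, 17 of the 29 were below it on every array, 3 were above it on some arrays and 9 were above it on all. Those 9 include the lysozyme gene Lyz2, the endotoxin receptor gene Cd14, the oxidase subunit gene Cybb (8.35 to 10.06), the cathepsin gene Ctss (5.49 to 6.65) and the macrophage receptor gene Csf1r (3.12 to 4.49), and the macrophage marker Adgre1 was above it on 8 arrays. The summed linear intensity of the other 28 markers, of which Cd14 and Lyz2 gave between 94.1% and 96.9% on each array, was 15742 to 18928 in uninjured and 20202 to 24174 in scratched wild-type cultures, and 15777 to 19175 and 19865 to 22148 in null cultures. Whether a change in leukocytes has a part in the Cd68 result was not tested beyond these values. In bulk cultures, fewer cells of a type and less RNA per cell cannot be told apart, here or below.

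Of the 46 gene lists, that of G2 and mitosis had the largest share of members past an unadjusted p of 0.05. It holds genes that build the spindle, condense and separate chromosomes and complete division. Of 56 measured members, 55 had a negative interaction, where 11660 of all 18193 genes and 6128 of the 11655 above background did. The remaining member, the transcription factor Foxm1, was at 0.01. At an adjusted p under 0.05, 4 members passed, all lower (Cks2, Cep55, Cdca3 and Kif2c), against 0.132% of all genes called. At an unadjusted p under 0.05, 36 members (64.3%) passed, all lower, against 7.79% of all genes and 11.5% of the genes above background. The list median was -0.52, and that of all genes -0.03. The list was drawn up with earlier results of these data known, so it is not independent evidence of its direction.

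The scratch responses behind these values were larger in wild-type cultures for 55 members, the same 55 by construction. The members' median response was 0.99 in wild-type and 0.45 in null cultures on the log2 scale. In wild-type cultures 44 members rose, where 2.55% of all genes rose, and in null cultures 28 did, where 2.27% of all genes rose. All 28 were among the 44. The difference had a part on each side of the scratch. Before it, the median genotype difference was 0.27 and 13 members were called higher in null cultures, where 4.79% of all genes differed between genotypes and 2.3% were higher. After it, the median was -0.32, with 7 members called lower and 2 higher in null cultures, where 6.21% of all genes differed, 2.92% lower and 3.29% higher. The spike-in sets hold unequal shares of the genotypes. With these sets as a block, the medians were 0.17 and -0.40. Before the scratch 1 member was called higher, where 0.181% of all genes were. After it 2 members were called lower, among 99 of all 18193 genes. The block left the median interaction at -0.52, with 2 members among the 13 genes called lower.

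The medians of the 56 members, each gene centred on its own mean show the group on every array. Uninjured wild-type cultures lay at -0.47, -0.42, -0.64 and -0.45, and scratched wild-type cultures at 0.68, 0.55, 0.32 and 0.57. Uninjured null cultures lay at -0.19, -0.25, -0.20 and -0.29, and scratched null cultures at 0.07, 0.28, 0.27 and 0.37. Scratched cultures lay above uninjured ones in both genotypes, and the uninjured groups did not overlap. The scratched groups did, since wild-type scratched 3, an array with a low upper quartile, fell below null scratched 4. Without the 3 arrays that stood apart the list median was -0.55.

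**Figure D3:**
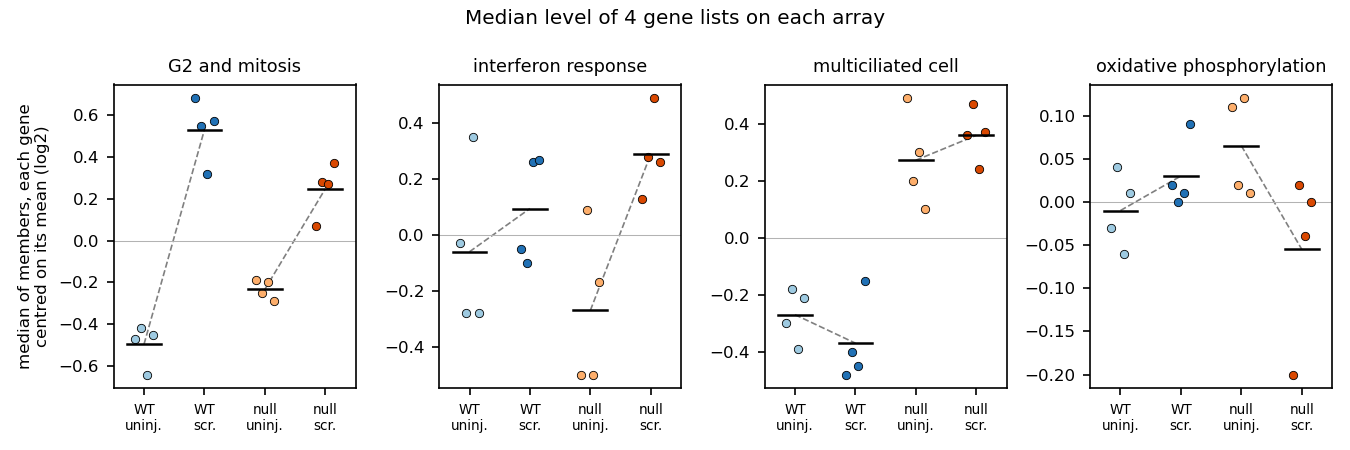
Median of 4 gene lists on each of the 16 arrays, each gene centred on its mean over all arrays (log2), with bars for group means and dashed lines from uninjured to scratched cultures. The G2 and mitosis line is steeper for wild-type than for null cultures, and uninjured cultures spread from -0.50 to 0.35 for the interferon list.

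By role, the 12 cyclins and mitotic kinases had a median of -0.51 and no called member. The cyclin Ccnb2, which drives entry into mitosis, rose by 2.03 in wild-type and 1.23 in null cultures, with an interaction of -0.79 that did not pass (adjusted p = 0.12). The kinases Cdk1 (-0.50, adjusted p = 0.087), Plk1 (-0.36, adjusted p = 0.74) and Aurka (-0.73, adjusted p = 0.19) did not pass either. The 19 kinesins and spindle proteins had a median of -0.58, with Kif2c and Cep55 called. The 25 proteins of kinetochores, chromosomes and mitotic exit had a median of -0.48, with Cks2 and Cdca3 called.

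Cks2, a small subunit that binds cyclin-dependent kinases, was the most precisely measured of them. Wild-type cultures went from 9.59, 9.50, 9.41 and 9.58 to 10.16, 10.19, 10.22 and 10.15. Null cultures went from 10.03, 9.92, 10.02 and 10.02 to 10.02, 10.26, 10.14 and 10.19. Uninjured null cultures thus lay above uninjured wild-type cultures, and the scratched groups overlapped. The interaction was -0.51 (SE 0.07, adjusted p = 0.019), and its other probe set gave -0.46.

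Kif2c, a kinesin that takes apart microtubules at kinetochores, rose 2.64-fold in wild-type cultures, from 6.29, 6.15, 6.35 and 6.11 to 7.80, 7.53, 7.36 and 7.82. Null cultures read 7.27, 6.72, 6.93 and 6.64 uninjured and 7.11, 7.33, 7.27 and 7.25 scratched. The interaction was -1.05 (SE 0.18, adjusted p = 0.043), but -0.43 on another probe set above background. Cdca3, which prompts the destruction of a mitosis inhibitor, went from 6.48, 6.48, 6.40 and 6.29 to 7.97, 7.85, 8.0 and 7.84 in wild-type cultures and from 6.72, 6.60, 7.10 and 6.63 to 7.26, 7.22, 7.56 and 7.50 in null cultures. The scratched groups did not overlap, and the interaction was -0.89 (SE 0.15, adjusted p = 0.043). Cep55, needed for the final cut between daughter cells, rose 2.41-fold in wild-type and 1.35-fold in null cultures. Its interaction was -0.83 (SE 0.13, adjusted p = 0.037), and -0.46 on its other probe set.

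Sgo2a, a shugoshin that guards the cohesion of sister centromeres, was called as well, although the list did not hold it. Wild-type cultures went from 5.81, 5.80, 5.55 and 5.84 to 6.48, 6.38, 6.32 and 6.27. Null cultures stayed between 6.29 and 6.54 in both states. The interaction was -0.65 (SE 0.10, adjusted p = 0.025).

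Further members lay just past the threshold. The contractile ring protein Anln had an interaction of -0.69 (adjusted p = 0.053), the topoisomerase Top2a -0.54 (adjusted p = 0.053) and the spindle midzone protein Prc1 -0.57 (adjusted p = 0.054). The centromeric histone Cenpa, which rose by 2.37 in wild-type and 1.22 in null cultures, had the largest interaction of the list in size, -1.15 (adjusted p = 0.085). These 4 were chosen for their size or p after their values were seen. Birc5, which is also a target of YAP and TAZ, had an interaction of -0.47 (adjusted p = 0.38).

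**Figure D4:**
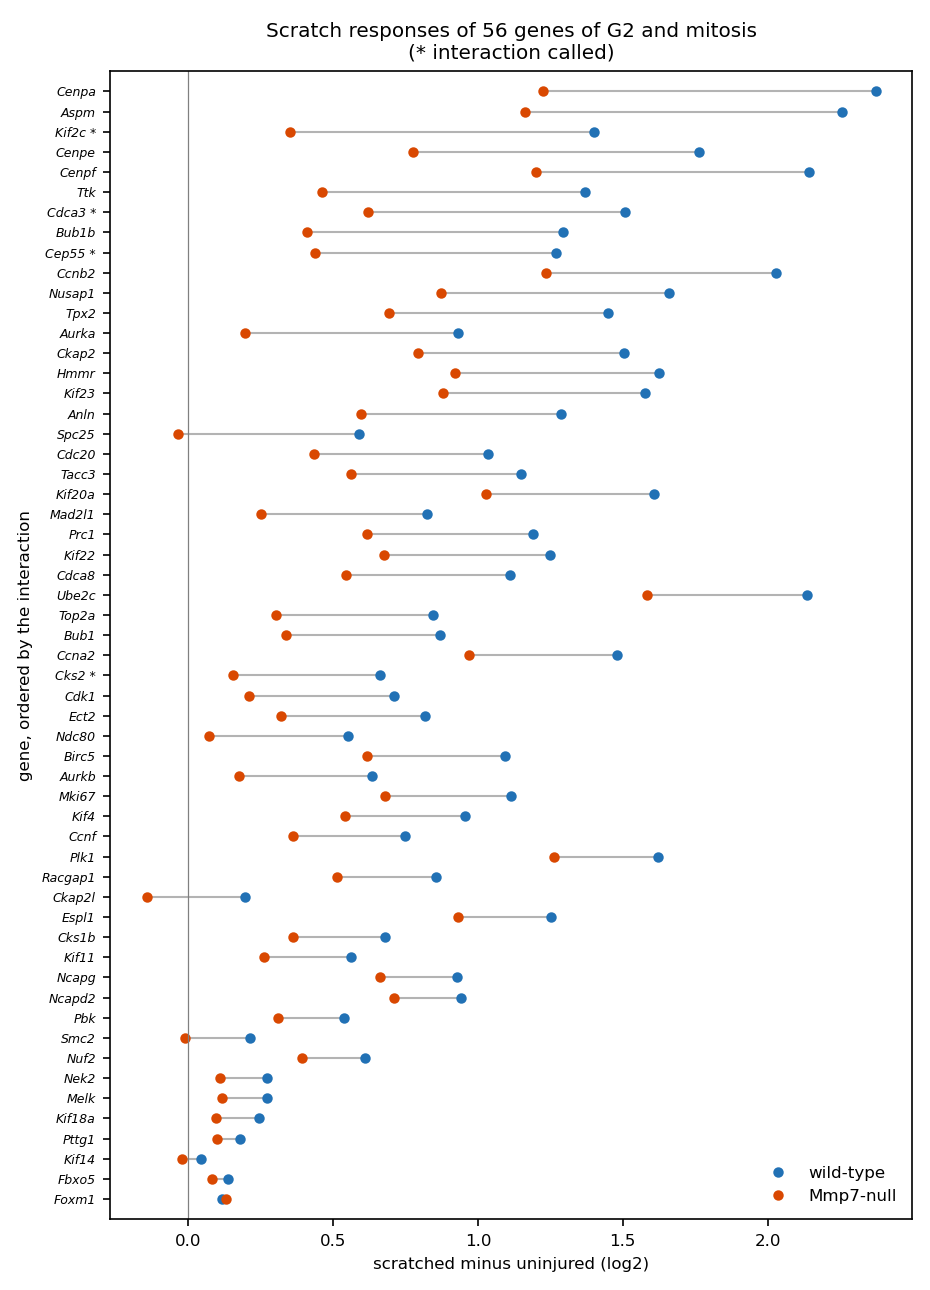
Scratch response (log2) of the 56 G2 and mitosis genes in wild-type (blue) and Mmp7-null (orange) cultures, ordered by the interaction, with an asterisk at the 4 called genes. The blue point lies to the right of the orange one for 55 genes, with Foxm1 at the bottom as the exception.

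Genes of earlier phases of the cell cycle had a median near that of all genes. The 34 genes of G1/S and DNA replication had a median interaction of 0.07 and no called member. At an unadjusted p under 0.05, 2 were higher and 3 lower (14.7%, against 7.79% of all genes and 11.5% of those above background). Their median response was -0.12 in wild-type and -0.07 in null cultures. The smallest p belonged to E2f2 (-0.48, adjusted p = 0.50). It read 4.27, 4.45, 3.62 and 3.97 in scratched wild-type cultures and 3.54 to 3.68 on the 12 others. Without the 3 arrays that stood apart, E2f2 passed (-0.76, adjusted p = 0.0038). That setting removed the scratched wild-type cultures at 3.62 and 3.97, the lowest of their group. The pass therefore rests on the 2 at 4.27 and 4.45. The other E2f2 probe set, with a mean below background, gave -0.11 with all arrays kept. The 10 D cyclins and inhibitors of cyclin-dependent kinases had a median of -0.10, and Cdkn2c, an inhibitor of the D cyclins' kinases, did not pass (-0.48, adjusted p = 0.15).

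Because the called mitotic genes moved together, the bases before their start sites were searched for a pair of motifs known from cell cycle promoters. These were the CCAAT box, spelled CCAAT, and the cell cycle homology region, spelled TTTGAA, each on both strands. Sequences are from RefSeq on GRCm38.p6 and were available for 50 of the 56 members; Aurkb, Ccna2, Foxm1, Kif20a, Pbk and Tpx2 were not in the table. Each stretch below holds the 150 bases before an annotated start, 5′ to 3′ on the gene's strand, with matches of either motif in capitals (ATTGG and TTCAAA are matches on the opposite strand). Of the 2 starts listed for Cep55, the one whose stretch holds a match is shown.
Cks2, chr13:51645082-51645231, plus strand: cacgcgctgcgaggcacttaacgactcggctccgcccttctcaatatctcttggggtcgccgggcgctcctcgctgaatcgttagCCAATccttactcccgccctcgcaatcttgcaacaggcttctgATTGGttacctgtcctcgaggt
Cdca3, chr6:124830026-124830175, plus strand: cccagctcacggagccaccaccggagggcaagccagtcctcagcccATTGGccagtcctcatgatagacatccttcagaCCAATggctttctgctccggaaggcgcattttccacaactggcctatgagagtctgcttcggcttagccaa
Cep55, chr19:38054891-38055040, plus strand: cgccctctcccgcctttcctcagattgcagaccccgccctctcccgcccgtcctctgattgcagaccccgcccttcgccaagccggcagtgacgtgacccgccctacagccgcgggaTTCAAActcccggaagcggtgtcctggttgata
Kif2c, chr4:117178773-117178922, minus strand: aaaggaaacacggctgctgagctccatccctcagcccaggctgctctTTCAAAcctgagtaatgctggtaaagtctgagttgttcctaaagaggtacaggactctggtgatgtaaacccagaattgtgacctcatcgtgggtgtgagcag

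Over windows from 250 bases before to 50 bases after the start, CCAAT was found in 38 of the 50 members (76.0%) and in 41.1% of the 27025 genes in the table. TTTGAA was found in 38 of the 50 (76.0%) and in 20.2% of all genes. Both together were found in 34 members (68.0%) and in 8.0% of all genes. Counted from the start, the printed CCAAT matches of Cks2 begin at -65 and -22, and the TTTGAA match of Cep55 at -33. Cdca3 has a TTTGAA match beginning at 31, after its start. Of the starts shown, only that of Cdca3 held both motifs in this window. Cks2 held CCAAT only, and Cep55 and Kif2c held TTTGAA only. A match describes these letters only, and no binding was measured.

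The 5 genes called higher were led by genes that fell in wild-type cultures. Rasl11a, a small GTPase of the Ras family, read 4.54, 4.77, 4.30 and 4.79 in uninjured and 3.45, 3.23, 3.17 and 3.14 in scratched wild-type cultures, a 2.55-fold fall. Uninjured null cultures read 3.15, 3.26, 3.43 and 3.36 and scratched null cultures 3.12, 3.18, 3.01 and 3.18. Only uninjured wild-type cultures stood apart. The 3 other groups lay just over the background level of 2.97, which leaves little range for a fall in null cultures. The interaction was 1.18 (SE 0.15, adjusted p = 0.0080).

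Med24, a subunit of the Mediator complex that links transcription factors to RNA polymerase, read 7.37, 7.19, 7.48 and 7.39 in uninjured and 6.11, 6.21, 6.55 and 6.28 in scratched wild-type cultures. Null cultures read 6.76, 6.98, 6.96 and 6.80 uninjured and 6.81, 6.84, 7.10 and 6.64 scratched, between the wild-type groups and overlapping each other. The interaction was 1.04 (SE 0.15, adjusted p = 0.019). Samd4, which binds RNA and represses translation, fell 1.67-fold in wild-type cultures, with an interaction of 0.88 (adjusted p = 0.043) and 0.39 on another bright probe set.

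Mex3b, an RNA-binding ubiquitin ligase, moved in opposite directions. Wild-type cultures went from 4.81, 4.94, 4.61 and 4.68 to 4.39, 4.22, 4.35 and 4.23, and null cultures from 4.47, 4.34, 4.07 and 4.40 to 5.07, 4.55, 4.67 and 4.77. Neither pair overlapped, and the interaction was 0.91 (SE 0.16, adjusted p = 0.043).

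Srebf2, the master regulator of cholesterol synthesis, rose in null cultures only as far as single responses were called. Wild-type cultures read 6.94, 6.78, 6.87 and 6.75 uninjured and 6.91, 6.97, 6.76 and 6.95 scratched, which overlapped. Null cultures went from 6.29, 6.53, 6.72 and 6.52 to 7.26, 7.27, 7.17 and 7.32. The interaction was 0.67 (SE 0.11, adjusted p = 0.037), but 0.12 (unadjusted p = 0.37) on its other probe set. Of the 32 genes of sterol and fatty acid synthesis, Srebf2 alone was called, and the median was 0.11. At an unadjusted p under 0.05, 7 members were higher and 3 lower (31.2% of the list, against 7.79% of all genes and 11.5% of those above background). Among the enzymes that did not pass, the desaturase Scd1 was at -0.62 (adjusted p = 0.11) and the desaturase Fads1 at 0.55 (adjusted p = 0.19).

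Dbp, a transcription factor that follows the circadian clock, fell in null cultures, from a mean of 10.05 (SD 0.049, n = 4) to 9.12, 9.60, 9.38 and 9.37. Wild-type cultures read 9.49, 9.45, 9.43 and 9.26 uninjured and 9.49, 9.91, 9.57 and 9.73 scratched, a change that did not pass (adjusted p = 0.17). Uninjured null cultures were above all others, and after scratching the genotypes overlapped. The interaction was -0.95 (SE 0.14, adjusted p = 0.020), and -0.88 on its other probe set. Of the 18 clock genes measured, Dbp alone was called, and the median was 0.02. The others did not pass and ran from -0.49 for Ciart (adjusted p = 0.69) to 0.57 for Npas2 (adjusted p = 0.73). Hlf and Tef, which belong to the same family of transcription factors as Dbp, were at 0.01 (adjusted p = 0.99) and -0.09 (adjusted p = 0.76). The hour of harvest is not in the labels.

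The called genes outside the naming rule were Kcnk1, given above, Hnrnpc and Sdhaf4. Hnrnpc, a protein that packages nascent RNA, had the smallest called interaction, -0.30 (SE 0.04, adjusted p = 0.019), with 11.81 to 11.89 and 12.03 to 12.13 in wild-type and 11.93 to 12.01 and 11.83 to 11.94 in null cultures. Its next brightest probe set gave -0.10. Sdhaf4, an assembly factor of succinate dehydrogenase, fell by 0.32 in null cultures, with an interaction of -0.46 (adjusted p = 0.021).

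**Figure D5:**
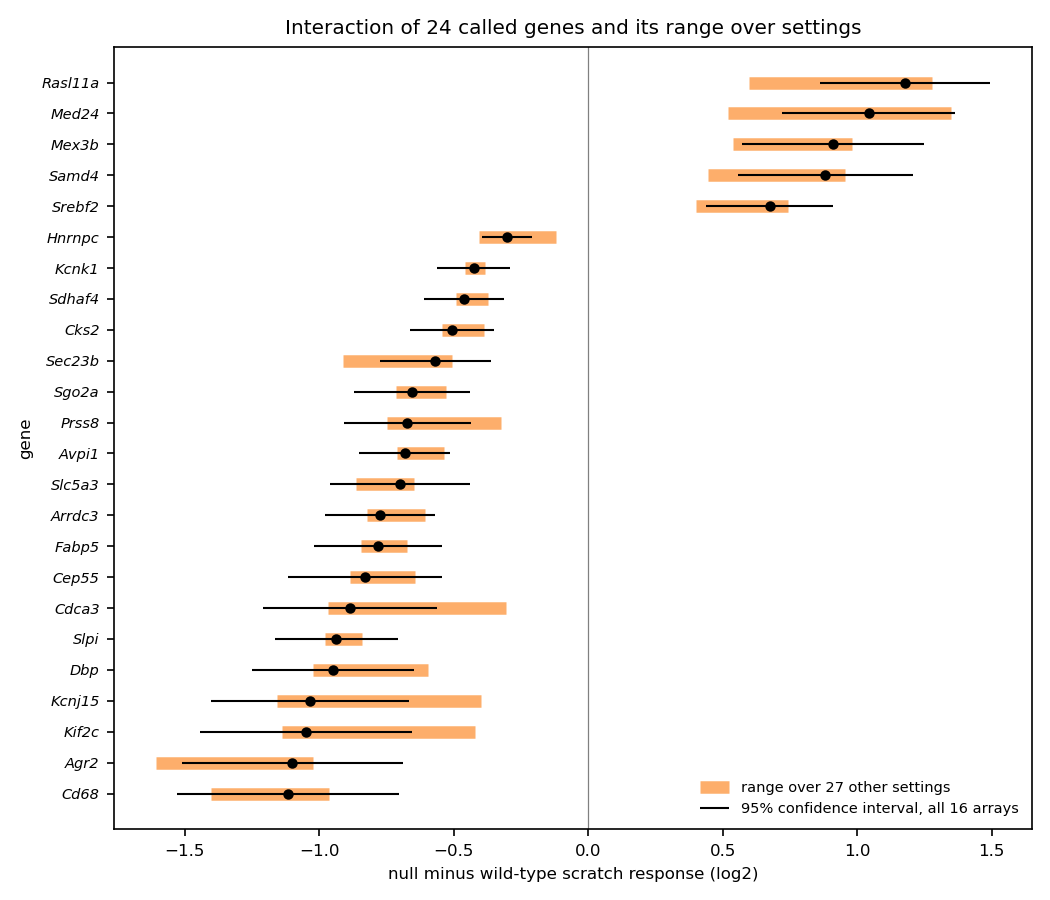
Interaction of the 24 called genes (points, log2) with 95% confidence intervals from the 16 arrays (thin lines) and the range of the value over 27 other settings (bars). No bar reaches 0, since all 24 genes kept their sign in every setting.

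The called genes differed in how often they passed under other settings. All 24 kept their sign in the 27 other settings tried. Slpi, Avpi1, Arrdc3 and Rasl11a passed in 26 of them, Med24 in 25, Fabp5 in 24, and Cks2 and Dbp in 23. Agr2 passed in 5, Kif2c, Samd4, Slc5a3 and Mex3b in 7, and Srebf2, Kcnj15 and Sec23b in 8. Within the Phe arrays 22 genes passed, of which Sec23b was among the 24. That set holds 1 wild-type array per state, whose spread is assumed to be that of the other groups. Without the 3 arrays that stood apart 50 passed, 24 higher and 26 lower, of which 14 were among the 24. With each array centred on its median 5 passed, 2 higher and 3 lower. Single arrays mattered for the count, which was 8 without null scratched 3 and 12 without wild-type uninjured 1, wild-type scratched 2 or null uninjured 3. Without wild-type scratched 1 it was 14, and without null scratched 4 it was 15.

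Interferon response genes, which cells switch on against viruses, leaned the other way without a called member. Of 54 measured, 48 had a positive interaction, where 6533 of all 18193 genes and 5527 of the 11655 above background did. The list median was 0.41. Their median response was 0.13 in wild-type and 0.65 in null cultures, with 5 members called up in wild-type (2.55% of all genes were) and 10 in null cultures (2.27% of all genes were). At an unadjusted p under 0.05, 7 were higher and 1 was lower (14.8%, against 7.79% of all genes and 11.5% of those above background). The 30 antiviral effectors had a median of 0.50, the 8 GTPases of the GBP and IRG families 0.74 and the 16 sensors and signalling genes 0.25. The kinase Eif2ak2, which stops translation in infected cells, had the smallest p and did not pass (0.64, SE 0.24, adjusted p = 0.51). Its null cultures read 7.92, 8.09, 8.01 and 7.98 uninjured and 8.33, 9.01, 8.98 and 8.61 scratched, without overlap. Its wild-type cultures read 8.39, 8.17, 8.78 and 8.18 and then 8.38, 8.28, 8.87 and 8.34, with wide overlap.

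The interferon list varied between cultures of the same group. Its array medians were -0.03, -0.28, 0.35 and -0.28 in uninjured wild-type, -0.05, -0.10, 0.26 and 0.27 in scratched wild-type, -0.50, 0.09, -0.50 and -0.17 in uninjured null and 0.13, 0.28, 0.49 and 0.26 in scratched null cultures. Scratched null cultures lay above uninjured null cultures, and the wild-type groups overlapped. Without the 3 arrays that stood apart, the list median was 0.65 and still no member was called. At an unadjusted p under 0.05, 15 members were then higher and 1 lower, where 1677 of all 18193 genes passed in either direction. Of the 17 genes of antigen presentation by MHC, 15 were positive, where 6533 of all 18193 genes were. Their median was 0.29 and none was called. The peptide transporter Tap2 had the smallest p of these (0.47, adjusted p = 0.60).

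Multiciliated cell genes differed between genotypes in both states, and little of that was interaction. Of 56 measured, 35 were called higher in uninjured null cultures and 47 in scratched null cultures, with median genotype differences of 0.58 and 0.74. Among all genes 2.3% and 3.29% were called higher. With the spike-in sets blocked, 7 and 28 members were called higher, where 0.181% and 0.841% of all genes were. The medians were then 0.59 and 0.76. The median interaction was 0.18. None was called, and with the block 1 was, among 5 genes called higher. Unadjusted, 11 (19.6%) passed, all higher, against 7.79% of all genes and 11.5% of those above background. Myb, which drives the multiplication of centrioles, came closest. It read 10.33, 10.30, 10.09 and 10.24 in uninjured and 9.85, 9.66, 9.67 and 9.64 in scratched wild-type cultures, and 10.87 to 10.99 and 10.73 to 10.82 in null cultures. Its interaction was 0.40 (SE 0.08, adjusted p = 0.088) on its brightest probe set. The 2 other Myb probe sets gave 0.51 (unadjusted p = 1.96e-05) and 0.39 (unadjusted p = 0.050). The interaction of Foxj1 was 0.41 (adjusted p = 0.58).

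Basal and squamous genes gave no called member. Among 21 basal cell genes the median was 0.12. The basal keratin Krt5 fell in both genotypes, by 0.80 in wild-type and 0.45 in null cultures, with an interaction of 0.36 that did not pass (adjusted p = 0.51). Among 23 genes of squamous cells and the cornified envelope the median was -0.05. The protease inhibitor Cst6 fell in null cultures only as far as single responses were called, from 9.03, 8.69, 8.56 and 8.29 to 6.95, 7.62, 7.52 and 7.49, beside 7.96 to 8.16 and 7.77 to 8.17 in wild-type cultures. Its interaction was as large as that of Agr2 but noisier and did not pass (-1.15, SE 0.23, adjusted p = 0.089). Among 14 alveolar type 1 genes the median was -0.07, and Cav1, the caveolar coat protein, was at -0.56 (adjusted p = 0.13).

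Notch1, a receptor of the pathway that steers airway progenitors away from the multiciliated fate, stood near the threshold. It read 8.65, 8.65, 8.54 and 8.62 in uninjured and 8.30, 8.19, 8.30 and 8.30 in scratched wild-type cultures, and 7.89, 7.96, 8.08 and 8.22 and then 8.08, 8.37, 8.25 and 8.39 in null cultures. It fell in wild-type cultures without overlap, the null groups overlapped, and the interaction was 0.58 (SE 0.10, adjusted p = 0.054). Without the 3 arrays that stood apart it passed (0.67, adjusted p = 0.042). The other receptors were further from it, with Notch3 at 0.66 (adjusted p = 0.22), Notch4 at 0.16 (adjusted p = 0.77) and Notch2 at 0.01 (adjusted p = 0.98). Over the 18 Notch genes the median was 0.16, with 4 higher (22.2%) and none lower at an unadjusted p under 0.05, against 3.62% higher among all genes.

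Genes tied to matrilysin itself gave no called interaction. Syndecan-1, whose shed form matrilysin releases, is encoded by Sdc1. It lay between 12.45 and 13.07 on all arrays and had an interaction of -0.01 (95% confidence interval -0.19 to 0.17, adjusted p = 0.96). That interval is for the brightest probe set, and its other probe sets gave 0.18 (unadjusted p = 0.066), 0.00 and 0.07. E-cadherin, encoded by Cdh1, was at 0.16 (95% confidence interval 0.01 to 0.31, adjusted p = 0.59). Of 17 substrates and partners of matrilysin, 3 were higher and 1 lower at an unadjusted p under 0.05 (23.5% in all, against 7.79% of all genes and 11.5% of those above background), with a median of -0.03. The smallest p was that of the hemidesmosome integrin Itgb4, which fell in wild-type cultures by 0.55 and was at 0.57 in the interaction (adjusted p = 0.32). Of 32 metalloproteinases and inhibitors, 2 were higher unadjusted (6.25%, against 3.62% of all genes) and the median was 0.00. The disintegrin Adam28 had the smallest p (0.40, adjusted p = 0.22). None of the 22 neighbours of Mmp7 on chromosome 9 passed unadjusted, and Mmp10 among them was below background on all arrays.

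Other wound genes gave no called interaction, which does not show that the genotypes responded alike. Among 53 genes of wound edge matrix and adhesion, 13 rose in wild-type cultures, where 2.55% of all genes rose, and 10 in null cultures, where 2.27% did. The median interaction was 0.00, the members ran from -0.53 to 1.01, and none was called. Fibronectin, the provisional wound matrix encoded by Fn1, was at 2.16 in wild-type and 1.63 in null cultures, with an interaction of -0.53 that did not pass (adjusted p = 0.34). Serpinb2, an inhibitor of plasminogen activators, was at 0.81 in wild-type and 2.11 in null cultures, with a noisy interaction of 1.30 (SE 0.40, adjusted p = 0.37). Its scratched null cultures read 7.02, 8.05, 8.26 and 8.22, above all scratched wild-type cultures except replicate 2, which exceeded the lowest of them. The cytokine Lif, which signals through gp130, was at 0.62 (adjusted p = 0.27) among 40 chemokines and cytokines with a median of -0.01. The immediate early list had 5 of 20 members (25%) higher unadjusted, against 3.62% of all genes, and a median of 0.08. Its smallest p was that of Phlda1 (0.53, adjusted p = 0.12), and its members ran from -0.27 to 0.77.

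A few lists leaned one way in small steps. Oxidative phosphorylation had 28 of 30 genes negative, where 64.1% of all genes and 6128 of the 11655 above background were. Of the 30, 9 (30%) passed an unadjusted p under 0.05, against 7.79% of all genes and 11.5% of those above background. The median was -0.18 and none was called. The cytochrome oxidase subunit Cox5b was at -0.23 (adjusted p = 0.20). Null scratched 1, an array with a low upper quartile, had the lowest array median of that list (-0.20), and without the 3 arrays that stood apart the list median was -0.11. Of 17 TGF-beta genes, 16 were positive, where 6533 of all 18193 genes were. Their median was 0.13, none was called, and the Smad inhibitor Pmepa1 was at 0.50 (adjusted p = 0.11). Junction genes had a median of 0.13 over 30 members, of which 19 were positive and 11 negative. Plakoglobin, encoded by Jup, was the highest of them at 0.41 (adjusted p = 0.11). The feedback inhibitor of ERK signalling Spred2 was at 0.55 (adjusted p = 0.094). Of the 15 genes of MAPK feedback, 10 were negative, where 64.1% of all genes were, and the median was -0.09. At an unadjusted p under 0.05, 2 of them were higher and 2 lower (26.7%), against 7.79% of all genes and 11.5% of those above background. Other Spred2 probe sets above background gave 0.65, 0.20 and -0.37. The glycolytic enzyme Pfkl was at 0.53 (adjusted p = 0.090) on its brightest probe set. Another Pfkl probe set above background gave 0.63 (unadjusted p = 4.76e-05). The glycolysis and hypoxia list had no clear lean, with 13 genes positive, 10 negative and a median of 0.02.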

How the data were processed

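Total RNA of 16 airway epithelial cultures was hybridised to Affymetrix mouse arrays, 1 array per culture. The deposited intensity values were background-corrected, normalized and summarised per probe set with RMA by the authors, per the submitters' processing notes, which give no version. The values are on a linear scale and were turned into log2 here. Of 45101 probe sets, 34945 carried 1 gene symbol in the platform annotation, which gave 18193 genes, each represented by its brightest probe set. With limma 3.58.1 in R 4.3.3, group means were fitted to the 16 arrays (12 residual degrees of freedom). Benjamini-Hochberg adjustment covered every gene tested, and called means an adjusted p under 0.05. The number of arrays limits the precision: above background the median SE of an interaction was 0.141, and at that SE a log2 value of 0.814 was needed to pass. The script was tested on simulated data.

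Named genes were the 15 largest called in each direction, up to 4 called members of a list, the member with the smallest p of a list with none, and Mmp7, Sdc1, Cdh1, Foxj1 and Krt5. Further genes given with values, such as Fn1, Kcne2, Scd1 and Notch3, lie outside this rule and are not a systematic selection. The members, lists and alternatives were chosen with earlier results of these data known. Alternatives covered replicate and spike-in blocks, left-out arrays, dim genes, probe sets, array weights, normalization and the log offset. The counts of list members with the spike-in block were added after seeing the data. Promoters are from RefSeq tables.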

Additional observations from a re-analysis of the deposited data

Results flagged for a closer look

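The scratch response differed between the genotypes, by the interaction test, for 24 genes. The log2 interactions of the 19 lower genes were -0.94 for Slpi, -0.68 for Avpi1, -0.78 for Arrdc3, -0.78 for Fabp5, -0.30 for Hnrnpc, -0.51 for Cks2, -0.43 for Kcnk1, -0.95 for Dbp, -0.46 for Sdhaf4 and -0.65 for Sgo2a. They were -0.83 for Cep55, -0.67 for Prss8, -1.04 for Kcnj15, -0.89 for Cdca3, -0.57 for Sec23b, -1.12 for Cd68, -0.70 for Slc5a3, -1.10 for Agr2 and -1.05 for Kif2c. Those of the 5 higher genes were 1.18 for Rasl11a, 1.04 for Med24, 0.67 for Srebf2, 0.88 for Samd4 and 0.91 for Mex3b.

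Single arrays stood far from the 3 others of their group in 25 of 288 groups of values examined, where chance alone gives about 1 in 20. Null scratched 1 and wild-type scratched 3 were each the distant array 5 times. For null scratched 1 these were Avpi1 at 10.45, Cav1 at 10.94, Serpinb2 at 7.02, Pycard at 9.03 and the sterol and fatty acid list median at 0.06. For wild-type scratched 3 they were Eif2ak2 at 8.87, Hpgd at 7.38, Cdh2 at 3.00, Mmp7 at 2.25 and the leukocyte list median at 0.08. Among called genes, Sgo2a had a distant array in 3 groups, at 5.55 in wild-type uninjured 3, 6.54 in null uninjured 2 and 6.39 in null scratched 2. Cks2 stood at 9.92 in null uninjured 2, Kcnj15 at 6.45 in null scratched 3 and Slc5a3 at 10.99 in wild-type uninjured 2. Among genes that did not pass, Notch1 stood at 8.19 and Sdc1 at 13 in wild-type scratched 2, and Myb at 9.85 in wild-type scratched 1. Tap2 stood at 6.83 in wild-type uninjured 2, 7.30 in wild-type scratched 4 and 6.25 in null uninjured 1. Dclk1 stood at 9.62 in wild-type uninjured 3, and Cdh2 at 2.88 and Mmp10 at 2.34 in null scratched 3.

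Of 10092 probe sets with no or several gene symbols, which entered no comparison above, 13 passed the interaction test with all probe sets tested together, 9 higher and 4 lower. In that test 39 of 45037 probe sets passed.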

How the results depend on the processing

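All 24 called genes kept the sign of their interaction in 27 other settings, but the number called moved. Against 24, it was 37 with the dimmest 40% of genes removed, 49 after repeated quantile normalization, 100 with array weights (40 higher, 60 lower), 50 without the 3 doubtful arrays, 15 with 16 added before the log and 5 with each array centred on its median (2 higher, 3 lower). It stayed within 1.5 times with the spike-in block (18), within the Phe arrays (22, of which 1 was among the 24), with mean probe sets (22) and with a trended, robust variance (19). Leaving out 1 array gave 8 to 28. With the replicate number as a replicate block it was 14 (12 of the 24). Of 24 same-number pairs of arrays, 5 had deviations correlated over 0.1 (range -0.218 to 0.307), and 3 arrays matched their own number best. The labels do not say whether cultures of the same number shared an animal, and these values cannot decide it.

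Within the Phe arrays the wild-type arm is 1 array per state, so those counts borrow the spread of the other groups. The single comparisons depended on the spike-in sets, which hold unequal shares of the genotypes. Genotype calls in uninjured cultures, 872 as reported, were 57 with the spike-in block, 42 within the Phe arrays, 1310 without the doubtful arrays and 480 (without null uninjured 1) to 1049 on leaving out 1 array, with 534 without wild-type uninjured 1. Those in scratched cultures, 1130 as reported, were 252 with the block, 223 within the Phe arrays, 1745 with array weights and 809 to 1135 on leaving out 1 array. Scratch calls in wild-type cultures, 883 as reported, were 204 within the Phe arrays, 1405 with array weights and 591 to 1125 on leaving out 1 array. Those in null cultures, 859 as reported, were 79 within the Phe arrays and 516 (without null uninjured 2) to 943 on leaving out 1 array, with 528 without null uninjured 3. The cause of these moves was not tested.

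Genes near 0 changed sign. Within the Phe arrays Lpcat1 was at -0.012, Cdh2 at 0.043, Mmp10 at 0.024 and Sdc1 at 0.16. With mean probe sets Hspa5 was at -0.086 and Sdc1 at 0.060. Sdc1 was at 0.033 after centring, 0.054 after quantile normalization and -0.044 to 0.049 on leaving out 1 array.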
